A study of Mus musculus with 12 samples.

Results

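A set of 9 enzymes of monoacylglycerol and endocannabinoid metabolism were read in RNA pulled down with endothelium-tagged ribosomes from mouse melanomas, which also held much tumour transcript. They were taken by symbol from the count table: Mgll, Abhd6, Abhd12, Dagla, Daglb, Napepld, Faah, Pnpla2 and Lipe, 9 of 24421 gene symbols. All 9 were among the 13534 genes with enough counts to be tested. The set was chosen by the level of Mgll, which was known to be lower in B16F10 than in B16F0 tumours, and the other 8 enzymes were set beside it by pathway, so the Mgll difference between the tumour lines is a description and no p is given for it.

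The study compared tumours of B16F10, a highly metastatic mouse melanoma line (n = 7 libraries), with tumours of B16F0, a poorly metastatic line of the same origin (n = 5). Both grew subcutaneously for 12 days in C57BL/6 hosts of 1 genotype, Rpl22 fl/fl HA with Cdh5(PAC)-CreERT2, and the hosts of both groups received tamoxifen. In this design the Cre, driven by the promoter of the endothelial cadherin Cdh5, switches on an HA-tagged ribosomal protein Rpl22, and ribosomes pulled down by the tag carry mRNA of vessel cells. Nothing in the labels says that the replicates are separate animals, and the tests then rest on the spread among libraries, which may be technical in part. The Y-linked gene Ddx3y ran from 0 to 29.2 CPM within B16F10 and from 0.067 to 78.1 CPM within B16F0.

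The precipitates were not purely endothelial. The 20 pan-endothelial genes were all detected and summed to between 768 and 5047 CPM (counts relative to the TMM-scaled library total) in B16F10 and between 1079 and 5450 CPM in B16F0. The 19 melanocytic genes of the count table summed to between 12032 and 24685 CPM and between 14904 and 25088 CPM in the same groups, and none of them was at 0 in all libraries. The 10 skeletal muscle markers summed to 56.3 to 766 CPM in B16F10 and 15.7 to 28.1 CPM in B16F0, ranges that did not overlap (exact permutation test of their mean log2 CPM, two-sided, p = 0.138, adjusted over 10 lists 0.275). Their part in the results on the 9 enzymes was not tested. A lower CPM can therefore come from fewer cells of a type or from less RNA per cell, and in bulk samples these cannot be told apart. Library totals ran from 5322510 to 20569186 counts in B16F10 and from 10753106 to 17381336 counts in B16F0, and 1 count in the shallowest library, B16F10 replicate 1, was worth 0.16 CPM.

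The endocannabinoids 2-arachidonoylglycerol and anandamide are lipid messengers made from membrane phospholipids on demand and removed by hydrolysis. The diacylglycerol lipases Dagla and Daglb release 2-arachidonoylglycerol, and the serine hydrolases Mgll, Abhd6 and Abhd12 cleave it to arachidonic acid and glycerol. Anandamide can be made by the phospholipase D Napepld and is broken down by Faah. Mgll also takes the last step of triglyceride breakdown, after Pnpla2 (adipose triglyceride lipase) and Lipe (hormone-sensitive lipase) have removed the first fatty acids, and through it fatty acids enter other lipids, a role described in aggressive cancer cells.

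Mgll and Napepld were the members in which no B16F10 library reached the level of any B16F0 library, and the 250 bases before their RefSeq gene starts are shown for that reason (build GRCm38.p6). The share of all genes tested with such a separation was not counted, so it only describes these members. The Mgll window, chr6:88724162-88724411 on the plus strand, ends at the base before the gene model, which spans chromosome 6 from 88724412 to 88828360. The Napepld window, chr5:21701623-21701872, lies on the minus strand upstream of a gene model that spans chromosome 5 from 21662901 to 21701396. Capitals mark the E-box CACGTG, whose letters read alike on both strands, and the related letters CATGTG, searched on both strands.
Mgll: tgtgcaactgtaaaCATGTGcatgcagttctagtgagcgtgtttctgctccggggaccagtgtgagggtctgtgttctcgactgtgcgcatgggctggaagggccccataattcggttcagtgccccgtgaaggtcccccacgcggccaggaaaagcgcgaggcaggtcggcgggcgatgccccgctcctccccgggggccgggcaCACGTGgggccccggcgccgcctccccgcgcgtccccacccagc
Napepld: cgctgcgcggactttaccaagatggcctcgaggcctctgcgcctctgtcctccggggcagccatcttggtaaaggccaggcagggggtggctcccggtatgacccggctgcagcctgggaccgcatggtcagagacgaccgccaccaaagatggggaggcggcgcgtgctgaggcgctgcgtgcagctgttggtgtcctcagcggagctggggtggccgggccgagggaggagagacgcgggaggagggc
The printed Mgll window held 1 CACGTG and 1 CATGTG, and its GC content was 68%. RefSeq gives Mgll a second start, whose window (chr6:88724454-88724703) lies inside the gene model and is not printed. That window held neither E-box, 1 GGGCGG and a GC content of 74.8%, so the matches depend on the start used. Of 32851 RefSeq promoter windows of the same length, 6.02% held CACGTG and 12.3% held CATGTG, and their median GC content was 52.4%. The Napepld window, with a GC content of 69.6%, held neither. Lipe, a member with a log2 fold change of 0.0024, held 1 CACGTG in the window of 1 start and 1 CATGTG in that of another. The letters are therefore not particular to Mgll among the members. The GC box GGGCGG was in neither printed sequence on either strand, and 32.7% of all windows held it. The same was true of the TATA box TATAAA, which 12.4% of windows held, and of the CCAAT box, which 33.8% held. These matches describe letters and not bound sites.

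Mgll, the main 2-arachidonoylglycerol hydrolase of most tissues, was the most abundant of the 9 transcripts in every B16F0 library. It stood at 631, 635, 707, 454 and 552 CPM in B16F0 replicates 1 to 5. In B16F10 replicates 1 to 7 it stood at 81.8, 111, 80.0, 144, 111, 81.3 and 69.3 CPM. The highest B16F10 library, replicate 4, was far below the lowest B16F0 library, replicate 4, and the groups did not overlap.

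Mgll averaged 596 ± 96.4 CPM over the 5 B16F0 libraries (SD) and 97.0 ± 26.4 CPM over the 7 B16F10 libraries, a level 6.14-fold higher in B16F0. The log2 fold change, B16F10 over B16F0, was -2.59. Each of the 3 sequencing lanes held libraries of both groups, and the difference of mean log2 CPM was -2.64, -2.72 and -2.55 in lanes 1, 2 and 6. Lane 2 had a single B16F0 library. Its library name prefix was not that of the B16F10 libraries of lane 2, so line and prefix cannot be told apart there. The authors' deposited table gives a log2 fold change of -2.62 for Mgll. Counts of Mgll ran from 510 to 10507 per library, so counting error is small beside the spread between libraries. An antisense gene that shares 167 bases of exon with Mgll, Gm26588, is not a symbol of the count table.

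**Figure D1:**
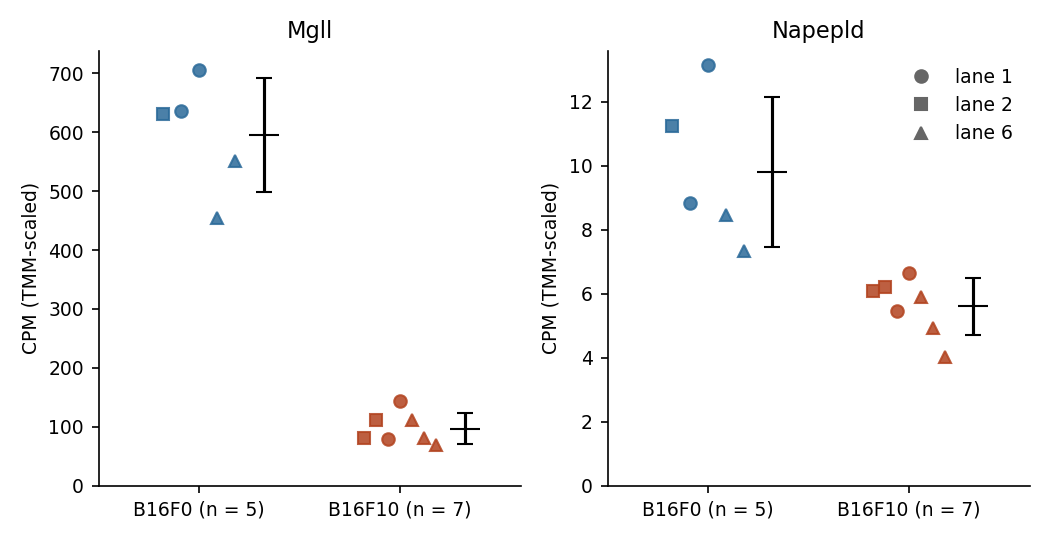
Mgll (left) and Napepld (right) in CPM, with 1 point per library, the marker shape for its sequencing lane, and the mean ± SD of each group at its right. The B16F10 points of Mgll lie between 69.3 and 144 CPM and the B16F0 points between 454 and 707 CPM, and the Napepld groups are separated by a narrow gap between 6.64 and 7.33 CPM.

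Over all genes tested, edgeR's quasi-likelihood test called 1.47% lower and 1.30% higher in B16F10 at a false discovery rate of 0.05. Of the 8 members other than Mgll, 1 was called lower, Napepld, and 0 were called higher. At an unadjusted p under 0.05, 2 of the 8 were lower, Abhd12 and Napepld, and 0 higher, beside 7.71% and 7.13% of all genes tested. DESeq2 called 1 of the 8 lower and 0 higher, beside 3.29% and 3.01% of all genes, and limma-voom the same numbers of members, beside 2.48% and 2.46%. The median log2 fold change of the 9 members, Mgll included, was -0.20, beside 0.02 over all genes tested.

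**Figure D2:**
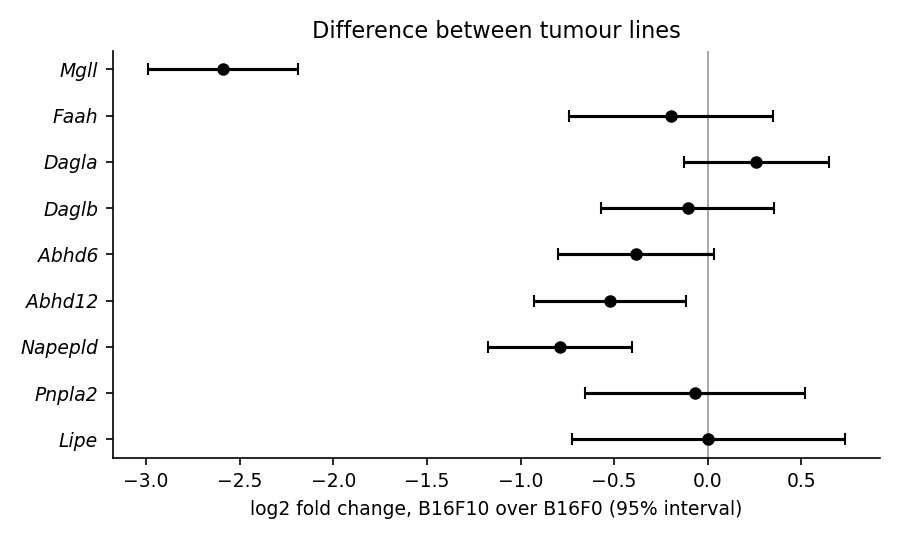
Log2 fold change of each member, B16F10 over B16F0, with its 95% interval; values left of the grey line are lower in B16F10. Mgll lies at -2.59 and Napepld at -0.79, the interval of Abhd12 runs from -0.93 to -0.12, and the intervals of the other 6 members include 0. The set was chosen by the Mgll difference, so the interval of Mgll is a description and not a test.

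Abhd12 (chromosome 2, 150832493 to 150904741), a membrane serine hydrolase that also removes lysophosphatidylserine, was the second most abundant member in B16F0. It stood at 133, 95.3, 73.1, 98.6 and 85.7 CPM in B16F0 replicates 1 to 5. In B16F10 replicates 1 to 7 it stood at 58.4, 62.8, 87.1, 52.3, 52.7, 78.8 and 81.8 CPM. The groups overlapped, with B16F0 replicates 3 and 5 below B16F10 replicate 3.

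Abhd12 averaged 97.2 ± 22.5 CPM in B16F0 (SD, n = 5) against 67.7 ± 14.6 CPM in B16F10 (SD, n = 7). Its log2 fold change of -0.52 ± 0.19 (SE) did not pass over all genes (edgeR adjusted p = 0.192), although its 95% interval of -0.93 to -0.12 lay below 0. The difference of mean log2 CPM was -0.31, -1.14 and -0.40 in lanes 1, 2 and 6, with the widest gap in the lane of 1 B16F0 library.

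Abhd6 (chromosome 14, 8002902 to 8056763), the third 2-arachidonoylglycerol hydrolase, faces the cytosol and in neurons works close to the sites of synthesis. It was a low transcript, at 12.4, 10.6, 7.67, 8.01 and 11.8 CPM in B16F0 replicates 1 to 5. In B16F10 replicates 1 to 7 it stood at 6.89, 6.90, 9.02, 5.92, 8.69, 7.89 and 9.40 CPM. Its groups overlapped, and its log2 fold change of -0.38 (95% interval -0.80 to 0.032) had an edgeR adjusted p of 0.384.

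Levels of different genes can be set side by side only per length, so CPM was divided by kilobases of exon. On that scale the 3 hydrolases summed to 156 ± 19.9 CPM per kilobase (SD, n = 5) in B16F0 and 46.4 ± 3.57 (SD, n = 7) in B16F10, with ranges of 128 to 177 and 39.7 to 50.4. Without Mgll the sum of Abhd6 and Abhd12 was 38.7 ± 8.56 and 27.3 ± 5.54 CPM per kilobase, with overlapping ranges of 29.1 to 52.5 and 21.0 to 34.7. These sums contain Mgll or stand beside it by choice, and they are given as a description.

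Mgll made up most of the hydrolase transcript in B16F0 and, in most libraries, less than Abhd12 in B16F10. Its share of the 3 was 70.3%, 76.6%, 82.7%, 70.0% and 75.4% in B16F0 replicates 1 to 5. In B16F10 replicates 1 to 7 its share was 40.6%, 46.5%, 31.3%, 57.5%, 49.5%, 33.9% and 29.3%. Abhd12 held 22.2% ± 4.93 (SD, n = 5) in B16F0 and 51.6% ± 9.73 (SD, n = 7) in B16F10, and Abhd6 held 2.76% ± 0.56 and 7.15% ± 1.21. Abhd12 stood above Mgll in 5 of the 7 B16F10 libraries, and Mgll stood above Abhd12 in replicates 4 and 5, the 2 B16F10 libraries with the most endothelial transcript. B16F10 replicate 5 also had 31.4% of its counts in Rn45s, against 0.21% to 1.75% in the other B16F10 libraries. Whether either bears on that order was not tested. With the longest transcript as the length in place of all exons the mean share of Mgll was 73.6% in B16F0 and 39.5% in B16F10.

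**Figure D3:**
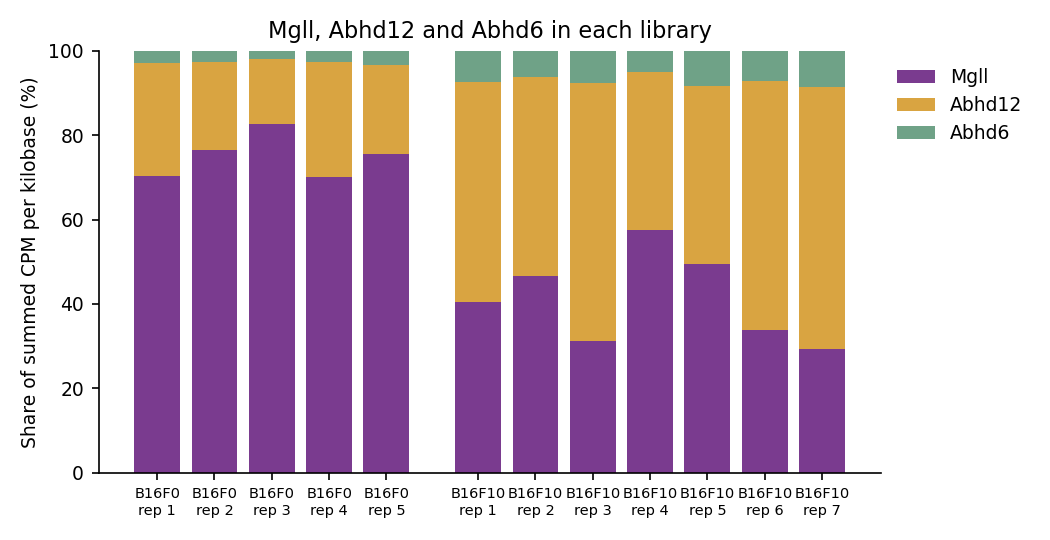
Share of Mgll, Abhd12 and Abhd6 in their summed CPM per kilobase of exon, with 1 stacked bar per library reaching 100%. Mgll takes 70.0% to 82.7% of each B16F0 bar and 29.3% to 57.5% of each B16F10 bar. A smaller Mgll part leaves larger parts to Abhd12 and Abhd6 by construction.

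The diacylglycerol lipases, which supply the substrate of Mgll, were at similar low levels in both groups. Dagla (chromosome 19, 10245265 to 10304877), the form that dominates in adult brain, stood at 9.83, 6.59, 7.25, 14.4 and 12.8 CPM in B16F0 replicates 1 to 5. In B16F10 it was narrowly spread, from 11.3 CPM through a median of 12.3 CPM to 12.6 CPM, and the groups overlapped. Dagla had a log2 fold change of 0.26 (95% interval -0.13 to 0.64, edgeR adjusted p = 0.563), and the lanes differed in sign, with 0.77, 0.33 and -0.19 in lanes 1, 2 and 6.

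Daglb (chromosome 5, 143464584 to 143505942), the form known for its part in macrophages and liver, stood at 20.3, 26.2, 13.4, 16.5 and 22.6 CPM in B16F0 replicates 1 to 5. In B16F10 it ran from 13.5 CPM through a median of 16.6 CPM to 25.1 CPM. Daglb had a log2 fold change of -0.11 (95% interval -0.57 to 0.36, edgeR adjusted p = 0.875). Exons of Daglb and of Rac1 on the opposite strand share 2309 bases, and Rac1 stood at 118 to 297 CPM, so without a known strand setting part of the Daglb count may belong to Rac1.

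The synthase transcripts Dagla and Daglb together came to 3.84 ± 0.73 CPM per kilobase (SD, n = 5) in B16F0 and 4.0 ± 0.45 (SD, n = 7) in B16F10. The ratio of Mgll to that sum ran from 21.2 to 52.3 in B16F0 and from 3.49 to 7.30 in B16F10. The groups did not overlap in this ratio, whose denominator was alike in both, so it restates the Mgll level relative to the synthases.

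Napepld, the phospholipase D that releases anandamide and other N-acylethanolamines, was the other member lower in B16F10. It stood at 11.2, 8.83, 13.1, 8.46 and 7.33 CPM in B16F0 replicates 1 to 5. In B16F10 replicates 1 to 7 it stood at 6.09, 6.20, 5.45, 6.64, 5.91, 4.93 and 4.02 CPM. The groups did not overlap, a separation not counted over all genes tested, but the highest B16F10 library was close to the lowest B16F0 library.

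Napepld averaged 9.80 ± 2.34 CPM in B16F0 (SD, n = 5) against 5.60 ± 0.89 CPM in B16F10 (SD, n = 7). Its log2 fold change of -0.79 ± 0.18 (SE, 95% interval -1.17 to -0.40) passed over all genes (edgeR adjusted p = 0.0329). The difference of mean log2 CPM was -0.82, -0.85 and -0.67 in lanes 1, 2 and 6. The call rests on few counts, 38 to 168 per library, and sits near the threshold. In the authors' deposited table the log2 fold change of Napepld is -0.79 with a false discovery rate of 0.0869, which is not past 0.05. The call was lost without lane 2 (-0.75, adjusted p = 0.210), and in 10 of 12 fits that each left out 1 library the adjusted p was between 0.0585 and 0.111. The log2 fold change moved little, from -0.86 to -0.71 over those 12 fits. It was kept without B16F10 replicate 5 and without B16F0 replicate 2.

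Faah (chromosome 4, 115967145 to 116017926), the membrane amidase that hydrolyses anandamide, was one of the lowest members. It stood at 6.62, 5.75, 3.07, 3.95 and 4.09 CPM in B16F0 replicates 1 to 5. In B16F10 it ran from 3.10 CPM through a median of 3.90 CPM to 5.87 CPM, inside the B16F0 range. Its log2 fold change of -0.20 (95% interval -0.74 to 0.35) had an edgeR adjusted p of 0.787. The ratio of Napepld to Faah per kilobase was 4.53 ± 2.24 (SD, n = 5) in B16F0 and 2.83 ± 0.68 (SD, n = 7) in B16F10, with overlapping ranges.

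Pnpla2 (chromosome 7, 141455198 to 141460743), which opens triglyceride breakdown at the lipid droplet, varied within both groups by more than it differed between them. It stood at 25.4, 30.8, 24.6, 10.8 and 15.2 CPM in B16F0 replicates 1 to 5. In B16F10 replicates 1 to 7 it stood at 12.8, 10.7, 30.2, 22.6, 28.8, 15.7 and 14.3 CPM. Pnpla2 had a log2 fold change of -0.069 (95% interval -0.66 to 0.52, edgeR adjusted p = 0.943). The lanes differed in sign, with -0.074, -1.11 and 0.53 in lanes 1, 2 and 6.

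Lipe (chromosome 7, 25379527 to 25398710), which takes diacylglycerol to monoacylglycerol in fat cells, was the lowest member per kilobase. It stood at 3.55, 1.87, 3.67, 1.64 and 1.78 CPM in B16F0 replicates 1 to 5 and ran from 1.28 CPM through a median of 2.54 CPM to 3.53 CPM in B16F10. With 17 to 53 counts per library, its log2 fold change of 0.0024 had a 95% interval of -0.73 to 0.73 (edgeR adjusted p = 0.998), so changes of up to that size in either direction lie within the interval. Lipe shares 918 bases of exon with 4732471J01Rik on the opposite strand, which stood at up to 1.70 CPM. Defining genes of fat cells were near 0, with Adipoq at up to 2.89 CPM and Plin1 at up to 0.96 CPM in any library. The 12 adipocyte markers summed to between 1.82 and 23.4 CPM in B16F10 and between 1.80 and 17.6 CPM in B16F0.

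Set beside these lipases, Mgll stood 18.1 ± 5.13 times above Pnpla2 per kilobase in B16F0 (SD, n = 5) and 3.37 ± 1.47 times above it in B16F10 (SD, n = 7). The ratio of Pnpla2 to Lipe was 17.7 ± 8.15 and 16.6 ± 6.34 in the same groups. Of the 3 successive lipases of triglyceride breakdown, the first and the second showed no difference past the test and the third, Mgll, was the one on which the set was chosen.

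In B16F0 the order per kilobase was Mgll at 117 ± 19.0 (SD, n = 5), Abhd12 at 34.4 ± 7.97, Pnpla2 at 7.08 ± 2.70, Abhd6 at 4.28 ± 0.92, Napepld at 2.48 ± 0.59, Daglb at 2.07 ± 0.53, Dagla at 1.77 ± 0.59, Faah at 0.60 ± 0.18 and Lipe at 0.42 ± 0.17 CPM per kilobase. Each of the first 3 stood above the next in all 5 libraries. Abhd6 stood above Napepld in 4 of the 5. Napepld, Daglb and Dagla were not separated beyond their spread, nor were Faah and Lipe. In B16F10 Abhd12 came first at 24.0 ± 5.16 (SD, n = 7) and Mgll next at 19.1 ± 5.20, a pair that overlapped. There Pnpla2 at 6.39 ± 2.62 and Abhd6 at 3.3 ± 0.55 followed, each above the next in all 7 libraries. Dagla at 2.09 ± 0.093 and Daglb at 1.91 ± 0.47 then overlapped, and Napepld at 1.42 ± 0.22 stood below Daglb in all 7 libraries, with Faah at 0.52 ± 0.11 and Lipe at 0.42 ± 0.17 last. Napepld thus lay above both synthases on average in B16F0 and below both in B16F10. With the longest transcript as the length, Daglb stood at 4.06 and 3.74 CPM per kilobase in B16F0 and B16F10, above Napepld in both, so this order depends on the gene length used.

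**Figure D4:**
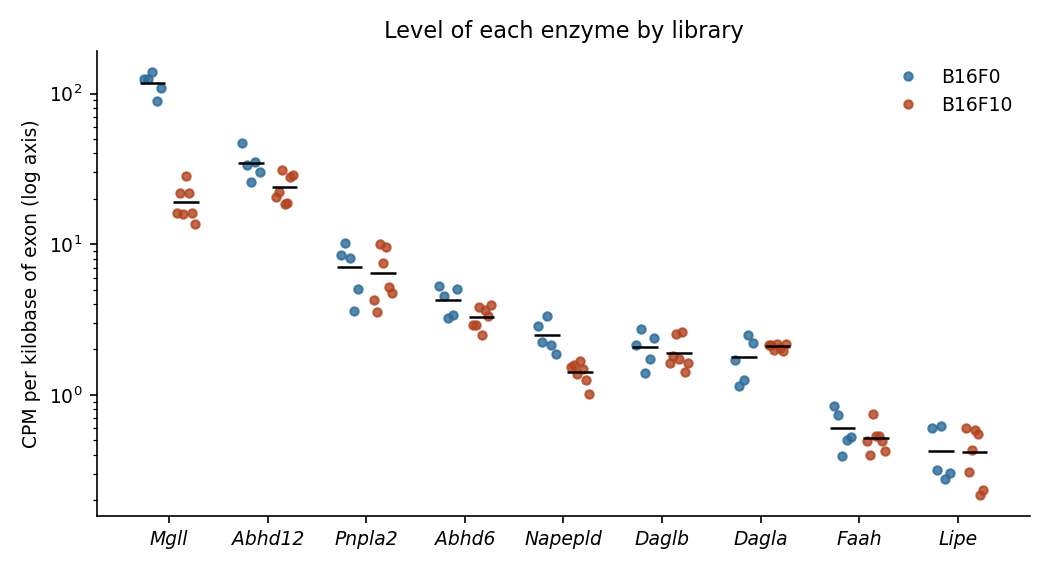
CPM per kilobase of exon on a log axis for each member, with 1 point per library and a black line at the group mean. Mgll averages 117 in B16F0 and 19.1 in B16F10, where it lies beside Abhd12 at 24.0, while the point clouds of Pnpla2, Abhd6, Daglb, Dagla, Faah and Lipe overlap between the groups.

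Endothelial transcripts varied widely between libraries, and Mgll was highest within each group in the library richest in them. The endothelial score (log2 CPM averaged over the 20 pan-endothelial genes) was 7.13 in B16F10 replicate 4 and 7.21 in B16F0 replicate 3, and 4.40 to 6.54 in the other 10 libraries. Those 2 libraries held Mgll at 144 and 707 CPM. They share a library name prefix that no other library carries, so endothelial content and prefix cannot be told apart in them. With group and lane in the model, Mgll had a slope of 0.26 ± 0.092 (SE) log2 units per unit of score, which did not pass over all genes (limma adjusted p = 0.139). Napepld, Lipe and Pnpla2 also had positive slopes, at 0.22, 0.42 and 0.12, and Abhd12 and Abhd6 negative ones, at -0.25 and -0.16. Of the 9 members 0 had a called slope, beside 5.27% of all genes tested, and 4 had an unadjusted p under 0.05 (limma), beside 21.6% of all genes tested. The log2 fold change of Mgll was -2.66 with the score as a covariate and -2.77 when the 3 libraries of highest score were left out.

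Abhd12 moved with the pigment cell transcripts, as did many genes, with a called positive slope in 2104 of 13534 tested. The melanocytic score (log2 CPM averaged over the 19 melanocytic genes) ran from 8.15 to 8.86 in B16F10 and from 8.43 to 8.94 in B16F0 (exact permutation test over 792 splits, two-sided, p = 0.0593, adjusted over 10 marker lists 0.274). With group and lane in the model Abhd12 had a slope of 1.28 ± 0.26 (SE) log2 units per unit of score (limma adjusted p = 0.00454). It was the 1 of 9 members with a called slope, and 32.7% of all genes tested had one. At an unadjusted p under 0.05 the numbers were 3 of 9 members and 45.3% of all genes (limma). The slope of Mgll was -0.79 ± 0.35 (SE, limma adjusted p = 0.0961), of the opposite sign. With this score in the fit the log2 fold change of Abhd12 between the groups was -0.16. The part of the pigment cell transcripts in the Abhd12 level was not tested.

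**Figure D5:**
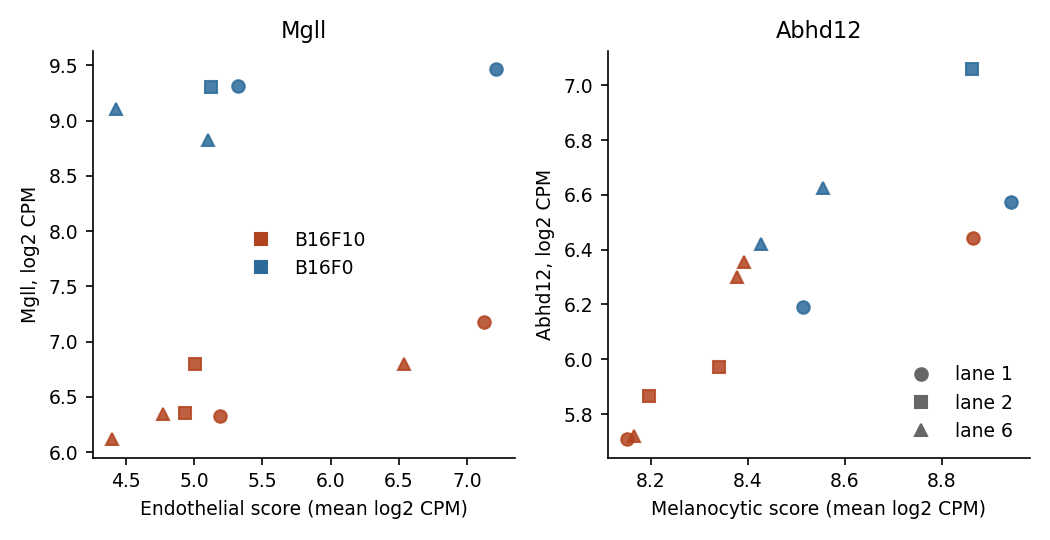
Left, log2 CPM of Mgll against the endothelial score, and right, log2 CPM of Abhd12 against the melanocytic score, with 1 point per library, the colour for the tumour line and the marker shape for the lane. Mgll forms 2 bands by tumour line, each highest at a score above 7.1, and Abhd12 has a fitted slope of 1.28 on the melanocytic score with line and lane in the model, though in B16F0 the library of highest score (8.94) holds less Abhd12 than the one at 8.56 (95.3 and 98.6 CPM).

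Over the 5 lists of the wider pathway, edgeR called 1 of 101 tested genes in either direction, beside 2.77% of all genes tested. Of 18 other alpha/beta hydrolase domain genes 16 were tested, and edgeR called 0 of them in either direction, with a median log2 fold change of -0.14. At an unadjusted p under 0.05, 2 were lower, Abhd3 and Abhd4, and 0 higher, beside 7.71% and 7.13% of all genes tested. DESeq2 and limma-voom called 0. The most abundant were Abhd13, a little studied member of the family, and Abhd2, a progesterone-sensitive monoacylglycerol hydrolase of sperm. Abhd13 averaged 105 ± 17.5 CPM in B16F0 (SD, n = 5) against 103 ± 30.8 CPM in B16F10 (SD, n = 7), and Abhd2 46.3 ± 7.68 against 48.9 ± 8.21 CPM. Abhd5, the coactivator of Pnpla2, averaged 43.9 ± 7.20 against 39.0 ± 5.26 CPM (edgeR adjusted p = 0.688). Abhd5 is named for that role and outside the rule.

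Of 27 other endocannabinoid enzymes, carriers and receptors 20 were tested, and edgeR called 0 higher and 1 lower, Fabp7, with a list median of -0.0023. At an unadjusted p under 0.05, 1 was higher and 1 lower, beside 7.13% and 7.71% of all genes tested. DESeq2 and limma-voom each called 0 higher and 1 lower, where they called 3.29% and 2.48% of all genes lower. Fabp7, a fatty acid binding protein of glia and melanoma that can carry anandamide, averaged 19.9 ± 7.88 CPM in B16F0 (SD, n = 5) against 9.12 ± 2.90 CPM in B16F10 (SD, n = 7). Its log2 fold change was -1.04 (edgeR adjusted p = 0.0238), and the groups overlapped, with ranges of 11.5 to 28.4 CPM and 6.02 to 14.3 CPM. The call was lost in 10 of 28 other settings, among them the fit that held the melanocytic score (-0.64, adjusted p = 0.0834) and the fits without lane 2 (0.150), without B16F10 replicates 2 or 4 and without B16F0 replicates 1, 2 or 4 (0.0584 to 0.135). The related carriers Fabp4 and Fabp5, the 2 most abundant genes of the list, did not pass the test. Fabp4, a marker of capillary endothelium and fat, averaged 317 ± 268 CPM in B16F0 against 241 ± 252 CPM in B16F10 (edgeR adjusted p = 0.833), and Fabp5 99.2 ± 36.4 against 71.8 ± 29.6 CPM (0.354). Without the 3 libraries of highest endothelial score, a setting chosen after seeing the data, Fabp4 had a log2 fold change of -0.96 and was called (edgeR adjusted p = 0.0372). Fabp4 was not called in the other 27 of 28 settings. Its log2 fold change ran from -1.07 to 0.22 over the 28. The brain cannabinoid receptor Cnr1 reached at most 3.53 CPM and was not tested.

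Of 38 genes of triglyceride breakdown and the lipid droplet 26 were tested, and edgeR called 0, with a median of -0.042, while 5 were lower and 0 higher at an unadjusted p under 0.05, where the share of all genes tested was 7.71% and 7.13%. DESeq2 called 1 of them lower, beside 3.29% of all genes. The limma-voom fit called 1 higher and 2 lower, beside 2.46% and 2.48% of all genes. The acyl-CoA synthetases Acsl3 and Acsl5 were the most abundant, at 299 ± 118 and 186 ± 64.4 CPM in B16F10 (SD, n = 7) and 447 ± 186 and 173 ± 42.1 CPM in B16F0 (SD, n = 5). Neither passed the test (edgeR adjusted p = 0.436 and 0.896). The droplet coat gene Plin1 and the fat cell genes Cidea and Cidec stayed under the count filter.

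Among 17 genes of triglyceride and monoacylglycerol synthesis 16 were tested and edgeR called 0, with a median of 0.08. At an unadjusted p under 0.05, 1 was higher and 1 lower, beside 7.13% and 7.71% of all genes tested. DESeq2 called 1 higher, beside 3.01% of all genes, and limma-voom called 0. The acyltransferases Gpat4, listed under its older symbol Agpat6, and Agpat5 led the list, with Agpat6 at 246 ± 103 and 195 ± 68.5 CPM and Agpat5 at 142 ± 57.4 and 145 ± 19.3 CPM in B16F10 (SD, n = 7) and B16F0 (SD, n = 5). Their edgeR adjusted p was 0.370 and 0.964.

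Of 25 genes that supply or remove diacylglycerol 23 were tested, and edgeR called 0, with a median of 0.19. At an unadjusted p under 0.05, 3 were higher and 1 lower, beside 7.13% and 7.71% of all genes tested. DESeq2 called 1 lower, beside 3.29% of all genes, and limma-voom called 0. The phospholipase Plcg1, which releases diacylglycerol below growth factor receptors, was at 170 ± 25.2 and 202 ± 22.3 CPM, and the diacylglycerol kinase Dgkd at 124 ± 17.8 and 102 ± 21.1 CPM in B16F10 (SD, n = 7) and B16F0 (SD, n = 5). Their edgeR adjusted p was 0.431 and 0.403.

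Genes that ran like Mgll were sought among 10087 that averaged 5 CPM or more. The members and symbols of the Gm, Rik or accession kind were left out of these. The 5 whose log2 CPM ran most like that of Mgll over the 12 libraries were Phyhipl (Pearson r = 0.97), Rab5b (0.96), Abcc2 (0.95), L1cam (0.95) and Dennd5b (0.94). The 12 points form 2 groups, and the likeness was mostly that of the groups. Within the 7 B16F10 libraries the same r was 0.81, 0.33, -0.32, 0.25 and 0.22, and within the 5 B16F0 libraries 0.058, -0.69, 0.024, 0.015 and 0.89. Rab5b, a GTPase of early endosomes, averaged 51.4 ± 3.75 CPM in B16F0 (SD, n = 5) against 25.2 ± 1.58 CPM in B16F10 (SD, n = 7). Dennd5b, an exchange factor of Rab GTPases, averaged 277 ± 15.6 against 163 ± 21.3 CPM. Of the other members Napepld had the highest r with Mgll, at 0.90, followed by Abhd12 at 0.55 and Abhd6 at 0.49. Dagla, at -0.53, was the one member of negative r.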

How the data were processed

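The libraries of ribosome-bound mRNA came from the ScriptSeq kit. Whole-number counts per symbol were deposited by the authors, and the submitters' processing notes name cutadapt 1.16, STAR 2.2.1, featureCounts 1.6.0, edgeR, R 3.3.2 and build mm10. The counting has a strand setting and annotation not given in the sources used here. A comparison table deposited by the authors gives log2 fold changes and false discovery rates, and its decimal commas were read as points. A deposited normalized table was not used, since its decimal marks are lost.

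The 9 members and all gene lists were chosen with earlier results of these data known. Counts of 13534 genes that passed filterByExpr of edgeR 4.0.16 (minimum count 10) were scaled by TMM and tested in R 4.3.3 with edgeR's quasi-likelihood F test with lane as a factor, Benjamini-Hochberg adjusted over all genes, at a false discovery rate of 0.05. Standard errors were taken as the log2 fold change over the root of F. CPM uses TMM-scaled totals of tested genes. Slopes on the scores were fitted with limma 3.58.1 on log2 CPM (prior count 2), with group and lane. Exon lengths came from GENCODE M21 on the same build and promoter sequences from RefSeq (GRCm38.p6). In the lists 9 symbols were matched through older names. Named genes were the members, called genes and the 2 most abundant genes of each list, and the 5 genes most like Mgll. Other settings changed the batch term, covariates, scaling, filter or tool (DESeq2 1.42.0, limma-voom) or left out libraries. Chosen after seeing the data were 3 of these: leaving out the 3 libraries of highest endothelial score, leaving out the 2 richest in Rn45s, and a Ddx3y covariate. Library totals are in the report and limit genes of few CPM most.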

Additional observations from a re-analysis of the deposited data

Results flagged for a closer look

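The CPM of the 9 members and the share of Mgll among the hydrolases were examined in each group, 20 sets of values in all, and in 1 of them a library stood apart. Faah was at 5.87 CPM in B16F10 replicate 3, while the other 6 B16F10 libraries lay between 3.10 and 4.17 CPM. The gap to the nearest library was a share of 0.61 of the group's range and exceeded Dixon's 95% limit for 7 libraries. Chance gives about 1 such result in 20 groups. B16F10 replicate 3 also had the highest melanocytic score of its group, 8.86, and the highest Abhd12 level, 87.1 CPM. The cause was not tested.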

How the results depend on the processing

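The log2 fold change of Mgll ran from -2.85 to -2.49 over 28 other settings. The count of members higher in B16F10 was 0 in all 28. The count of members lower, which includes Mgll by choice, was 2 in 13 settings and 1 in the other 15, where the Napepld call was lost and the cause was not tested: without a batch term (adjusted p = 0.0556), with upper quartile scaling (0.0532), with library size alone (0.0519), without lane 2 (0.210), with the replicate block and in 10 of 12 fits that left out 1 library, whose counts ran from 1 to 2. With the replicate number as a block 1 member was lower, and Napepld had a log2 fold change of -0.67 (adjusted p = 0.468). Fabp7 stayed at -1.04 with that block but lost its call (0.298). Rab5b and Dennd5b stood at -1.02 and -0.76 with it. Both were picked for running like Mgll, whose group difference chose the set, so no p is given for them. The replicate numbers do not pair the samples, since same-numbered libraries had correlations of -0.27, -0.27, -0.24, -0.29 and 0.32. No B16F0 library correlated best with its own number. B16F0 replicates 2 and 3 correlated best with B16F10 replicates 3 and 4, each of which carries the library name prefix of its partner. With the prefix as a factor in edgeR, the log2 fold change of Mgll was -2.58 and that of Napepld -0.75 (adjusted p = 0.0344). DESeq2 gave Napepld an adjusted p of 0.00189 and limma-voom one of 0.00852.

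Leaving out 1 library, members with a called endothelial slope numbered 0 to 1 (Daglb, -0.40, without B16F10 replicate 5 and Abhd12, -0.27, without B16F0 replicate 1), and with a called melanocytic slope 1 to 2 (Mgll, -1.04, without B16F10 replicate 1). The share of all genes called was not counted in those fits. With every library in the fit it was 5.27% for the endothelial score and 32.7% for the melanocytic score. The Abhd12 melanocytic slope was called in all 14 settings, from 0.99 to 1.52. Over all genes 176 were higher and 199 lower, against 30 and 28 with the replicate block, 136 and 131 without a batch term, 407 and 445 by DESeq2, 325 and 305 with the library name prefix, 333 and 336 by limma-voom, 318 and 283 with the melanocytic score, 153 and 132 with library size alone, 96 and 81 without lane 2, 111 and 125 leaving out the 2 Rn45s-rich libraries, and 104 to 199 and 99 to 247 without single libraries. Without a filter the median of all genes moved from 0.02 to 0.18. Few counts limit Lipe, Faah, Napepld and Abhd6 most.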
